A study of Bos taurus and Bubalus bubalis with 9 samples.

Results

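Circular RNAs (circRNAs) from 43 genes that build the sarcomere and its Z-disc were examined in muscle of Xinyang buffalo and in muscle and adipose tissue of Nanyang cattle. The genes were taken by symbol from a list of parts of the contractile apparatus. Of the 43, 29 had at least 1 row in the buffalo or the cattle circRNA table (20 and 26, with 17 in both), among 5280 named host genes (the genes whose exons or introns the circRNA spans). They had 66 of 10701 rows in the buffalo table, 63 of them with a read in muscle, and 156 of 18535 rows in the cattle table. The other 14 (TTN, TCAP, DES, FLNC, MYOZ1, MYOZ3, SYNPO2L, ANKRD2, TPM2, TPM3, LMOD3, KLHL40, XIRP1 and TRIM55) had no row under their symbol.

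The samples were the longissimus dorsi muscle of 3 Xinyang buffalo, labelled as low in intramuscular fat, the same muscle of 3 Nanyang cattle, labelled as high, and the back subcutaneous fat of these 3 cattle. All animals were castrated at 6 months, fattened from 18 months and slaughtered at 30 months, and none carried a further treatment or allele that the labels name. Buffalo and cattle differed in species and in farm, buffalo reads had been aligned to the cattle genome, and the circRNA tables were made separately, so levels of the species are given side by side without a test. Each library was a whole tissue piece, in which fewer cells of a type and less RNA per cell cannot be told apart.

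In striated muscle, thick myosin filaments are held in register at the M-band by myomesins and along their length by myosin-binding proteins, and thin actin filaments are anchored in the Z-disc by alpha-actinin. Z-disc proteins such as myopalladin, palladin, myotilin and the PDZ-LIM proteins link alpha-actinin to other filaments, and ligases and chaperones of the MURF and UNC45 kind renew the parts. A circRNA forms when a downstream splice site is joined back to an upstream one, and it is counted through reads that cross this back-splice junction. No base sequence is printed, and positions are those of the cattle genome UMD3.1.

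Junction reads numbered 4472 to 6122 per library in buffalo muscle, 15440 to 27141 in cattle muscle and 12042 to 21053 in cattle adipose tissue. Values are RPM, a junction's reads scaled to a library total whose definition the sources do not give. Totals were derived from the RPM of 1 read. That was 0.0152 to 0.0167 RPM in buffalo and 0.0237 to 0.0280 RPM in cattle. Of 10 skeletal muscle markers, 0 had a circRNA in adipose tissue, against 4 in buffalo muscle with 22 to 25 summed reads per library and 7 in cattle muscle with 15 to 37. Of 18 adipocyte markers, 8 had circRNAs in adipose tissue, with 48 to 72 summed reads per library, and 6 in cattle muscle, with 7 reads in each library. ADIPOQ, LEP and FASN, which define fat, had no circRNA in either tissue of cattle. Cattle adipose tissue 2 stood apart in smooth muscle markers, 4 of 8 of which had circRNAs in adipose tissue, with 1, 20 and 2 summed reads in libraries 1 to 3.

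Circular RNA of the sarcomere genes was read mostly in muscle. It came to 106, 133 and 86 reads in buffalo muscle 1 to 3, from 20 genes, and to 414, 595 and 591 reads in cattle muscle, from 25 genes. In cattle adipose tissue there were 7, 17 and 3 reads, from 9 genes. The summed level was 1.71 ± 0.34 RPM (SD, n = 3) for buffalo muscle, 13.9 ± 2.8 RPM for cattle muscle and 0.241 ± 0.195 RPM for cattle adipose tissue, and the cattle tissues did not overlap. Of all junction reads, these were 2.03 ± 0.13% for buffalo muscle, 2.52 ± 0.29% for cattle muscle and 0.0534 ± 0.0301% for adipose tissue. Cattle muscle was thus 8.10 times buffalo muscle in RPM but 1.24 times as a share of junction reads, since all circRNAs together were 6.62 times as high in cattle in RPM. Without MYBPC1 the members were 0.498 ± 0.089% of junction reads for buffalo muscle and 0.787 ± 0.029% for cattle muscle. That was 1.58 times, and all cattle libraries lay above all buffalo libraries. MYPN made most of this gap, at 0.124 ± 0.020% and 0.345 ± 0.014%, and without MYPN as well the muscles overlapped. These shares leave out an unnamed gene described below with TTN. It had 210 reads in buffalo muscle and 270 in cattle muscle, against 79 and 506 for the members without MYBPC1. Counted with the members, with or without MYBPC1, it would put all buffalo libraries above all cattle libraries. Much of the signal was thin. Circular reads were found in all 3 libraries for 5 members in buffalo muscle, 11 in cattle muscle and 1, TPM1, in adipose tissue. The last rests on a sum of separate gene identifiers under the TPM1 symbol, none of which alone had reads in all 3 adipose tissue libraries. In buffalo muscle 18 of the 20 members had fewer than 10 reads in all.

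**Figure D1:**
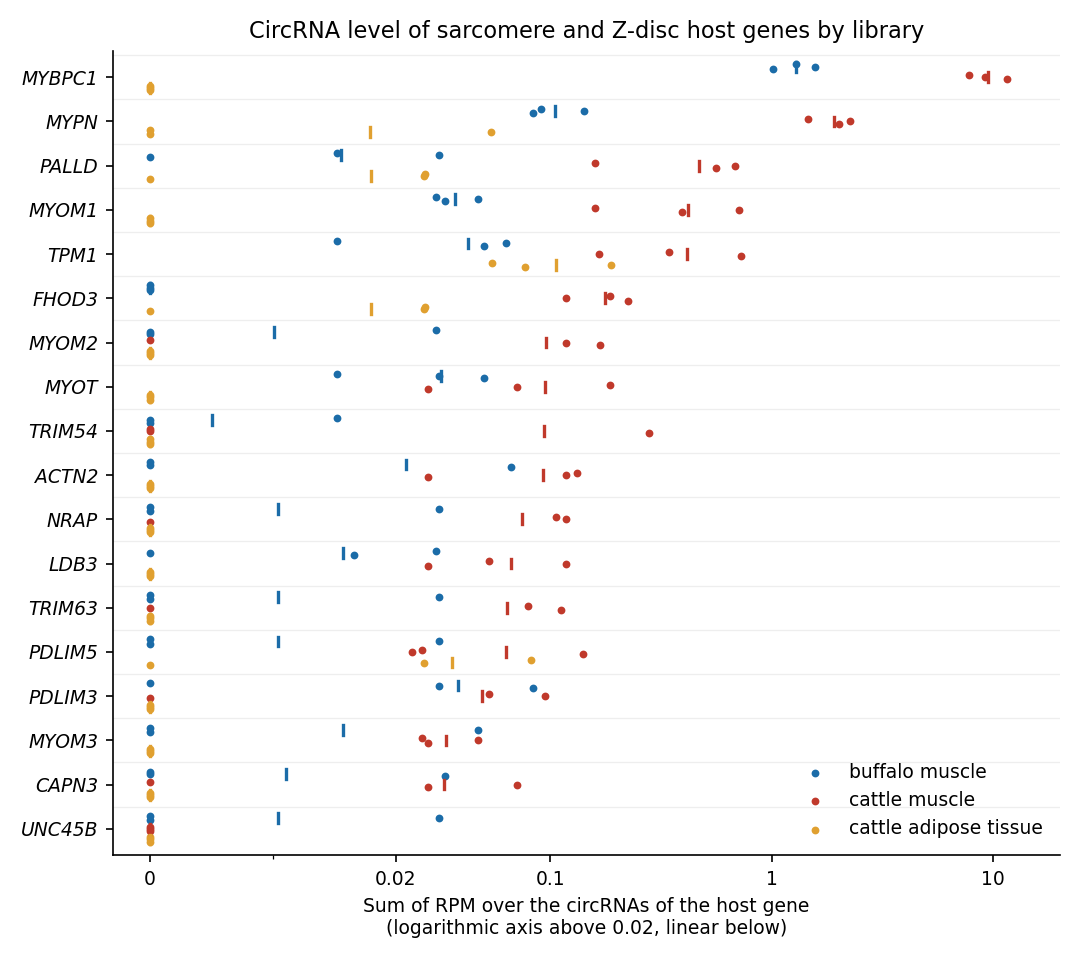
Summed circRNA level (RPM, logarithmic above 0.02) of the 18 named sarcomere and Z-disc host genes, with 1 point per library and a short bar at the mean of 3 libraries. MYBPC1 leads in both muscles, at 1.29 RPM in buffalo and 9.50 RPM in cattle, and its 3 cattle adipose tissue libraries sit at 0.

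MYBPC1, which encodes the slow form of myosin-binding protein C along the thick filament, was the main source. It gave 85, 100 and 61 reads in buffalo muscle, 293, 389 and 412 in cattle muscle and 0 in each adipose tissue library. That was 75.7% of all member reads in buffalo muscle and 68.4% in cattle muscle. Its mean of 1.29 ± 0.28 RPM in buffalo muscle ranked 2 of 2278 named hosts, and its mean of 9.50 ± 1.91 RPM in cattle muscle ranked 4 of 3882. With 3 reads over the group as the floor for adipose tissue (0.0266 RPM), MYBPC1 was at least 356-fold higher in cattle muscle, and at least 233-fold without cattle adipose tissue 3, since fewer libraries raise the floor. On the log2(RPM + 1) scale the difference was 3.38 ± 0.12 (SE), the third largest of 1837 hosts tested (limma, adjusted p = 1.48e-05). As a share of junction reads, MYBPC1 was similar in the 2 muscles, at 1.53 ± 0.15% in buffalo and 1.74 ± 0.26% in cattle, and the libraries overlapped.

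The myomesins, which cross-link thick filaments at the M-band, had few circular reads. MYOM1 had 2, 3 and 2 reads in buffalo muscle, 6, 30 and 14 in cattle muscle and 0 in adipose tissue, so the cattle tissues did not overlap. It was at least 16.2-fold higher in cattle muscle against the floor, at least 10.2-fold without cattle muscle 2, which held 30 of the 50 reads, and at least 10.7-fold without cattle adipose tissue 3. Its log2 difference of 0.49 ± 0.13 did not pass (limma, adjusted p = 0.117). Cattle muscle 1 was the low library, and without it the difference was 0.63 (limma, adjusted p = 0.0258). Without cattle muscle 3 MYOM1 did not pass, and its adjusted p was then the highest of all alternatives. MYOM2 gave 2, 0 and 0 reads in buffalo muscle and 0, 5 and 6 in cattle muscle. MYOM3 gave 0, 3 and 0 reads in buffalo muscle and 1, 2 and 1 in cattle muscle. Neither had a read in adipose tissue, and both were too low for the test.

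Of the 17 Z-disc genes, MYPN had the most circular RNA. It encodes myopalladin, which binds alpha-actinin and nebulin. MYPN had 6, 9 and 5 reads in buffalo muscle, 55, 95 and 72 in cattle muscle and 0, 2 and 0 in adipose tissue. The cattle tissues did not overlap. The means were 1.91 ± 0.41 RPM in cattle muscle and 0.0179 ± 0.0310 RPM in adipose tissue, a ratio of pooled reads of 108 with an exact 95% interval of 29.6 to 899 for counting error only. It was 71.0 without cattle adipose tissue 3, and at least 48.4 without cattle adipose tissue 2, which held both adipose tissue reads. The log2 difference was 1.50 ± 0.11 (limma, adjusted p = 0.000637), rank 9 of 1837. In buffalo muscle MYPN stood at 0.105 ± 0.031 RPM. As a share of junction reads it was 0.124 ± 0.020% in buffalo and 0.345 ± 0.014% in cattle, and all 3 cattle libraries lay above all 3 buffalo libraries.

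PALLD, the related palladin gene, had 1, 2 and 0 reads in buffalo muscle, 6, 29 and 20 in cattle muscle and 1, 1 and 0 in adipose tissue. Its log2 difference in cattle was 0.51 ± 0.13 (limma, adjusted p = 0.108), and it became 0.67 without cattle muscle 1, again the low library (limma, adjusted p = 0.0065). PALLD did not pass without cattle muscle 3, again the alternative with the highest adjusted p. The pooled ratio was 26.8, with an interval of 7.08 to 227, and 17.6 without cattle adipose tissue 3. ACTN2, the alpha-actinin of the Z-disc, gave 0, 0 and 4 reads in buffalo muscle and 5, 5 and 1 in cattle muscle. MYOT, which encodes myotilin, gave 1, 2 and 3 reads in buffalo muscle and 7, 3 and 1 in cattle muscle. LDB3, whose product is also called ZASP or cypher, gave 2, 0 and 1 reads and 2, 5 and 1 reads in the same muscles. These 3 genes had no read in adipose tissue. PDLIM3 gave 0, 2 and 5 reads in buffalo muscle and 2, 4 and 0 in cattle muscle, and 0 in adipose tissue. PDLIM5 was the Z-disc gene with the most reads in adipose tissue, 3, 1 and 0, against 1, 1 and 5 in cattle muscle and 0, 2 and 0 in buffalo muscle, and here the cattle tissues overlapped. Of the rest of this group, CSRP3, NEXN and SYNPO2 had 3 to 5 reads over cattle muscle, NEXN and SYNPO2 had 1 read each in adipose tissue, PDLIM7 had 2 reads in buffalo muscle, and the 6 others (DES, FLNC, MYOZ1, MYOZ3, SYNPO2L and ANKRD2) had no row.

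The alpha-actinins of many cell types, ACTN1 and ACTN4, were close to the limit of detection. ACTN4 had 2, 0 and 0 reads in buffalo muscle, 0, 3 and 0 in cattle muscle and 0, 1 and 0 in adipose tissue. ACTN1 was the 1 member with reads in adipose tissue alone, 2 reads of cattle adipose tissue 2. That library held 17 of the 27 member reads of the tissue and all 9 members found there, the same library that held 20 of the 23 smooth muscle marker reads. The part of this in the adipose tissue values was not tested. Without it, 4 members were detected in adipose tissue.

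Among the genes of the thin filament and its assembly, FHOD3, a formin that builds actin filaments, had 7, 5 and 8 reads in cattle muscle, 1, 1 and 0 in adipose tissue and 0 in buffalo muscle. The cattle tissues did not overlap, yet the log2 difference of 0.21 ± 0.06 did not pass (limma, adjusted p = 0.134). NRAP, a scaffold of myofibril assembly, gave 0, 2 and 0 reads in buffalo muscle and 4, 5 and 0 in cattle muscle, with 0 in adipose tissue. LMOD2, a leiomodin that lengthens thin filaments, had 5 reads, all in cattle muscle 3. ACTA1, the skeletal alpha-actin itself, had 1 read in buffalo muscle and 0 in cattle. KLHL41 and XIRP2 had 1 read each in cattle muscle.

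TPM1, a tropomyosin gene, was also among the 6 members tested. It had 13, 7 and 26 reads in cattle muscle, 2, 7 and 3 in adipose tissue and 1, 4 and 3 in buffalo muscle. The log2 difference was 0.33 ± 0.14 (limma, adjusted p = 0.317), and the cattle tissues overlapped, with 0.188 RPM in adipose tissue 2 against 0.166 RPM in muscle 2. The symbol stood for 2 gene identifiers in the tables. ENSBTAG00000005373 on chromosome 10, where RefSeq places TPM1 (assembly ARS-UCD2.0), had 10, 7 and 16 reads in cattle muscle and 0, 7 and 3 in adipose tissue. ENSBTAG00000033217 on chromosome 3, where RefSeq places TPM3, had 3, 0 and 10 reads in cattle muscle and 2, 0 and 0 in adipose tissue. The symbol's sum may thus hold reads of TPM3, or reads that fit related tropomyosin copies and were split between them. Neither was tested, so the sum is uncertain. Taken by gene identifier, neither passed (limma, adjusted p = 0.31 and 0.613).

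TPM1 junctions were mostly intronic. The tables class each circRNA by whether its ends lie in exons or introns, and 16 of the 18 TPM1 circRNAs of cattle muscle were of the intron class, with 44 of its 46 reads. Over the members of cattle muscle, 27 of 151 circRNAs (17.9%) were of the intron class. This compares with 2.57% of all 11998 and 15.7% of the 121 of other sarcomere genes. TPM1 gave 16 of the 27, most of them junctions that shared an end and differed by few bases. The member share of circRNAs therefore rests largely on TPM1. Of the TPM1 ones, 8 on the minus strand of chromosome 10 shared the position 47059483, their upstream side, and held 31 reads. Their downstream sides lay within 14 bases of each other, from 47058239 to 47058253. In adipose tissue the 2 member circRNAs with the highest means were of TPM1. The leading one, of the exon class, ran from 47059484 to 47064668, with 0, 3 and 3 reads. The next, of the intron class, ran from 47058241 to 47059483 with 0, 4 and 0 reads. Another of TPM1, on chromosome 3 from 16390807 to 16391360, was tied with a PDLIM5 circRNA from 31387342 to 31491990 of chromosome 6, each with 2, 0 and 0 reads.

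Of the 6 members that encode chaperones, ligases and a protease of the sarcomere, 4 had circRNAs in buffalo muscle and 4 in cattle muscle, at few reads, and none had a read in adipose tissue. TRIM55 had no row in any group. TRIM54 and TRIM63 encode muscle RING-finger ligases. TRIM54 had 1, 0 and 0 reads in buffalo muscle and 0, 0 and 10 in cattle muscle, so 1 library held all reads of cattle. TRIM63 had 0, 2 and 0 reads in buffalo muscle and 3, 0 and 4 in cattle muscle. Each had 1 junction, the same in both species. CAPN3, the muscle calpain, had 0, 0 and 2 reads in buffalo muscle and 0, 3 and 1 in cattle muscle. UNC45B, a myosin chaperone, had 0, 2 and 0 reads in buffalo muscle and none in cattle, and SMYD1 had 3, 0 and 1 reads in cattle muscle and none in buffalo.

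The comparison of cattle tissues asks which circRNAs differ between muscle and fat of the same breed. It tested hosts with at least 2 reads in at least 3 of the 6 libraries. Of the 43 members, 6 passed this filter, and 2 of them, MYBPC1 and MYPN, were called higher in muscle at an adjusted p under 0.05, with 0 lower (limma, and all 6 at an unadjusted p under 0.05). Over all 1837 hosts, 54 (2.94%) were called higher and 16 (0.871%) lower, and 288 had an unadjusted p under 0.05 (limma). Most of the 6 passed the filter through muscle alone, so neither their count nor their direction or size stands as evidence about the 43 genes. Genes of the same structure outside the 43 gave 4 higher and 0 lower of 7 tested from a list of 35, under the same filter and with the same limit. NEB, which encodes nebulin, had a larger difference than any member, 4.33 ± 0.12 (limma, adjusted p = 5.52e-06), and MYL1, LMO7 and MYLK2 were the other 3. With edgeR's quasi-likelihood test on the recovered reads, 5 members were called, MYOM1, PALLD and TPM1 in addition (adjusted p = 3.68e-06, 4.72e-05 and 0.0486). This test also called more of all 1837 hosts than limma did, so its member count cannot be read against the limma shares. Over all alternatives the adjusted p ran from 3.68e-06 to 0.31 for MYOM1, from 4.72e-05 to 0.331 for PALLD and from 0.0486 to 0.631 for TPM1, the highest without cattle muscle 3 in each.

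**Figure D2:**
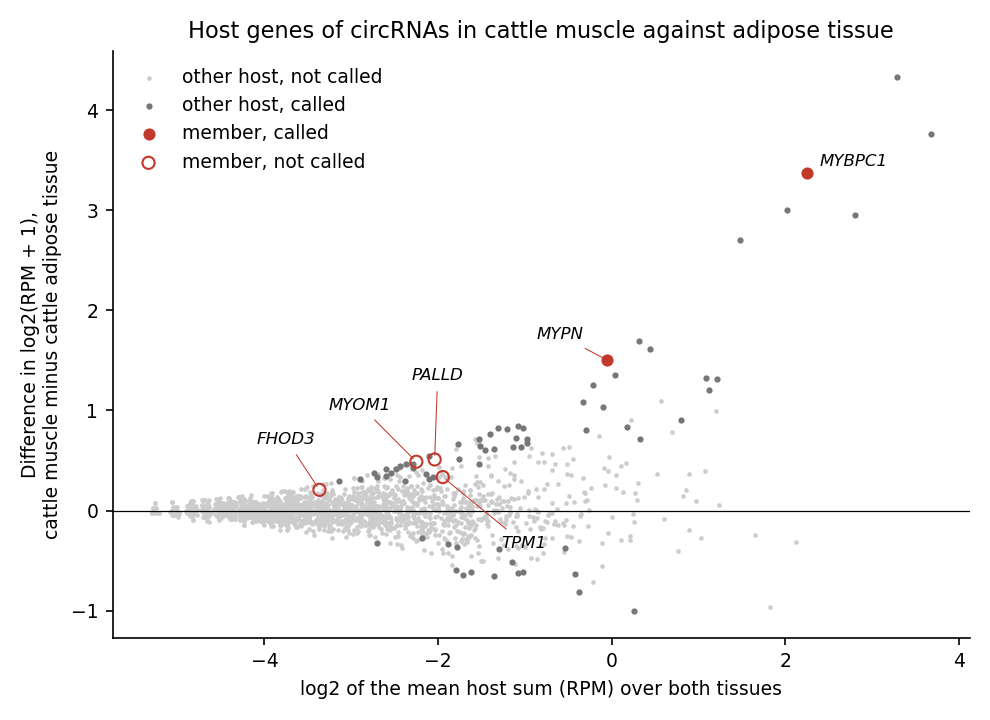
Difference in log2(RPM + 1) between cattle muscle and cattle adipose tissue against the log2 mean level, with 1 point for each of 1837 host genes. MYBPC1 at 3.38 and MYPN at 1.50 were called higher in muscle, and the open circles are the 4 members tested and not called.

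At the level of single junctions, 11 circRNAs of 3 members (MYBPC1, MYPN and PALLD) could be tested, and 7 were called higher in cattle muscle, 6 of MYBPC1 and 1 of MYPN, with 0 lower. Over all 1917 circRNAs tested, 59 (3.08%) were called higher and 3 (0.156%) lower. By edgeR the split over all circRNAs was 136 higher and 27 lower. All 11 passed the filter through muscle alone, with at most 2 reads in adipose tissue, so their direction and count stand as a description. The 7 are junctions of 2 genes and share their transcripts, so they are not separate observations. All 8 MYBPC1 junctions tested had 0 reads in every adipose tissue library.

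The leading circRNA of the members in both muscles ran from 65790613 to 65793791 of chromosome 5, an exonic MYBPC1 circle over 3179 bases of the genome on the plus strand. It had 33, 65 and 34 reads in buffalo muscle and 79, 134 and 132 in cattle muscle, 2.99 ± 0.82 RPM in the latter, with a log2 difference to adipose tissue of 1.97 ± 0.14 (limma, adjusted p = 0.000785). The second of cattle muscle, from 65814732 to 65821075, had 73, 80 and 102 reads and a difference of 1.68 ± 0.11 (limma, adjusted p = 0.000496). In buffalo muscle this junction had 2, 3 and 0 reads. A long circle from 65793625 to 65835493, over 41869 bases, had 34, 59 and 51 reads in cattle muscle and 3, 6 and 3 in buffalo muscle, with a difference of 1.16 ± 0.10 (limma, adjusted p = 0.0014). The circle from 65833474 to 65835493 had 50, 43 and 44 reads in cattle muscle and 24, 10 and 5 in buffalo muscle, with a difference of 1.13 ± 0.06 (limma, adjusted p = 0.000206). The other 2 called junctions were lower. The one from 65818124 to 65821075 had 13, 15 and 11 reads in cattle muscle and 8, 5 and 6 in buffalo muscle (0.42 ± 0.04, limma, adjusted p = 0.00358). The one from 65793625 to 65814899 had 8, 14 and 11 reads in cattle muscle and 0 in buffalo muscle (0.36 ± 0.05, limma, adjusted p = 0.0141), and it lost its call when any 1 of 5 libraries was left out (all but cattle muscle 1), with adjusted p of 0.0518 to 0.078.

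**Figure D3:**
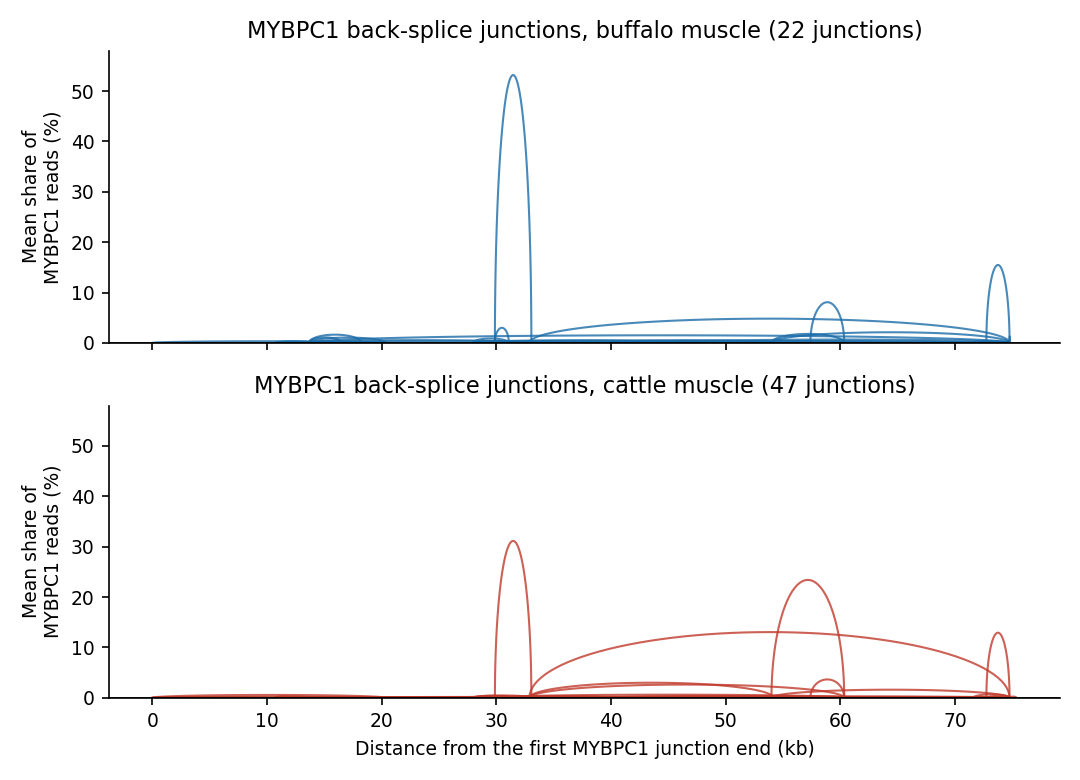
Back-splice junctions of MYBPC1 in buffalo and cattle muscle. Each arc joins the ends of 1 junction at their distance from the first junction end (kb), and its height is the mean share of the gene's reads (%) over 3 libraries. The same short circle is the tallest in both, at 53.2% and 31.1%, and the arc that reaches 23.4% in cattle muscle stands at 1.78% in buffalo muscle.

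MYBPC1 reads were spread over 22 junctions in buffalo muscle and 47 in cattle muscle, of which 14 were identical. In cattle muscle 8 junctions with at least 10 reads held 91.4% of the reads. They reused a few ends. The end at 65835493 served 10 circRNAs in cattle muscle, with 28.9% of the gene's reads, and 7 in buffalo muscle, with 26.0%. The end at 65821075 served 4 circRNAs and 30.2% of reads in cattle muscle, and the start at 65793625 served 5 and 19.2%. The make-up differed between the species. The circle from 65790613 to 65793791 was 53.2 ± 13.3% of MYBPC1 reads in buffalo muscle and 31.1 ± 3.8% in cattle muscle, with the lowest buffalo library at 38.8% and the highest cattle library at 34.4%. The circle from 65814732 to 65821075 was 1.78 ± 1.58% in buffalo muscle and 23.4 ± 2.5% in cattle muscle, and that from 65793625 to 65835493 was 4.82 ± 1.24% and 13.0 ± 1.9%, without overlap in either. The circle from 65833474 to 65835493 was 15.5 ± 11.1% in buffalo muscle and 12.9 ± 3.6% in cattle muscle, and these overlapped. The circle from 65818124 to 65821075 was higher in buffalo muscle, 8.08 ± 2.68% against 3.65 ± 0.90%, and those from 65793625 to 65814899 and to 65821075 were at 0 reads there against 3.00 ± 0.52% and 2.63 ± 1.30% in cattle muscle. Shares within a gene do not depend on depth, but alignment of buffalo reads to the cattle genome and species cannot be told apart here.

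**Figure D4:**
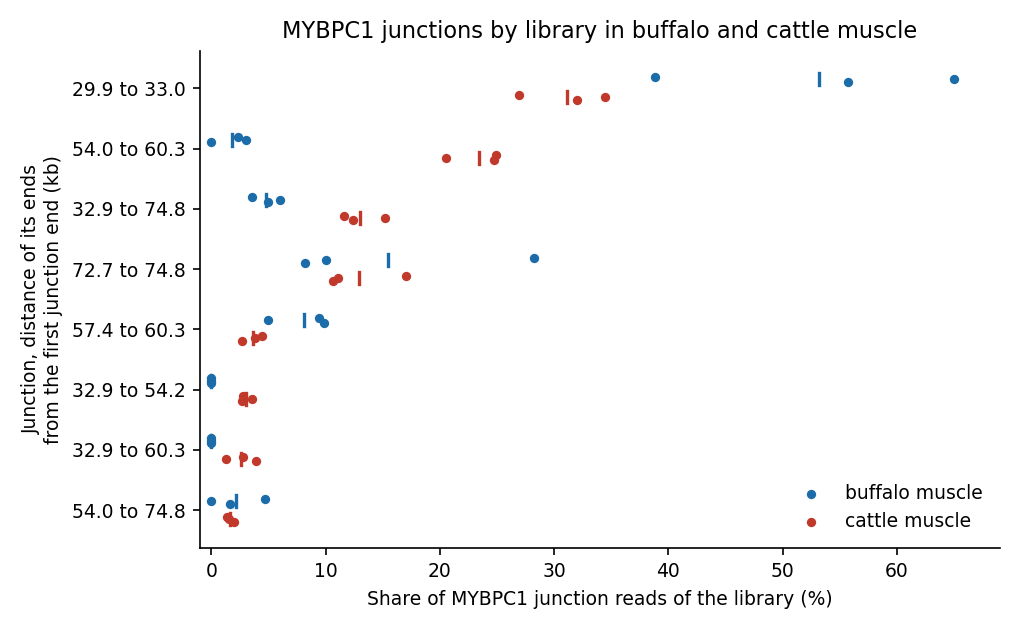
Share of MYBPC1 junction reads (%) in each library for the 8 junctions with at least 10 reads in cattle muscle, named by the distance of their ends from the first junction end (kb), with bars at the mean of 3 libraries. Buffalo and cattle muscle separate at the 3 upper junctions and at the fifth to the seventh, and overlap at the fourth and the lowest.

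MYPN drew most of its reads from 1 circle. The junction from 24774534 to 24782975 of chromosome 28, exonic and on the plus strand, had 51, 75 and 67 reads in cattle muscle, 86.9% of the gene's 222, and 0, 2 and 0 in adipose tissue. Its log2 difference was 1.38 ± 0.08 (limma, adjusted p = 0.000287). In buffalo muscle it had 1, 4 and 3 reads, 40.0% of 20. The start at 24774534 was used by 5 circRNAs in each muscle and carried 95.0% of MYPN reads in cattle muscle and 70.0% in buffalo muscle. PALLD had 2 circles in cattle muscle beside a single read, one from 748918 to 751800 of chromosome 8 with 3, 19 and 11 reads and one from 725671 to 734455 with 3, 10 and 8. Neither passed the test (limma, adjusted p = 0.162 and 0.132). In MYOM1 the circle from 37720609 to 37729482 of chromosome 24 had 1, 19 and 2 reads, so that cattle muscle 2 held most of it.

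Between the muscles, 35 member junctions were identical in both species to the base. They were 55.6% of the 63 member circRNAs of buffalo muscle and 23.2% of the 151 of cattle muscle, and they carried 85.8% and 79.3% of the member reads. Over all circRNAs 2231 junctions were identical, 47.1% and 18.6% of the circRNAs and 60.0% and 50.7% of the reads. Of the 35, 14 were of MYBPC1, 5 of MYPN and 4 of TPM1. The MYBPC1 junctions held most of the shared reads in both muscles, so the member shares of reads rest largely on that gene. Its leading circle alone had 132 reads in buffalo muscle and 345 in cattle muscle. Of the members, 17 had circular reads in both muscles, 85.0% of the 20 found in buffalo and 68.0% of the 25 found in cattle. Over all named hosts it was 1887, or 82.8% of 2278 and 48.6% of 3882. PDLIM7, UNC45B and ACTA1 had them in buffalo muscle alone, with 1 or 2 reads each, and 8 members had them in cattle muscle alone, with 1 to 20 reads each. For comparison, 3 reads over a group came to 0.0158 RPM in buffalo muscle and 0.0259 RPM in cattle muscle.

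TTN, the titin gene, had no row under its symbol. A gene that the tables leave unnamed, ENSBTAG00000026986 on chromosome 2, lay between the circRNAs of CCDC141 and PLEKHA3, and RefSeq places TTN between genes of these names. It was not counted as a member. It had 38 circRNAs with 85, 69 and 56 reads in buffalo muscle (1.10 ± 0.18 RPM), 90 circRNAs with 55, 113 and 102 reads in cattle muscle (2.33 ± 0.76 RPM) and 0 reads in adipose tissue. In a fit by gene identifier, made after these values were seen, the log2 difference was 1.71 ± 0.16 (limma, adjusted p = 0.00359). The gene passed the filter through muscle alone and was picked for these values, so the fit stands as a description. It was at least 87.7-fold higher in cattle muscle against the floor, and at least 57.6-fold without cattle adipose tissue 3.

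The linear RNA of the members was read from the buffalo muscle libraries alone, as FPKM per transcript, which accounts for transcript length. Names could be given to 5810 of 19917 transcripts through the identifiers in the circRNA tables, and 37 of them belonged to 29 members. ACTA1 had the highest level, 37458 ± 5867 FPKM (SD, n = 3), rank 4 of all transcripts. TPM1 followed at 4684 ± 867, MYBPC1 at 3182 ± 187, KLHL41, which stabilises nebulin, at 2421 ± 148, PDLIM3 at 2385 ± 544 and ACTN2 at 1835 ± 202 FPKM. MYOT stood at 1422 ± 262, XIRP2 at 1090 ± 201, CSRP3 at 1051 ± 275, LDB3 at 732 ± 113, LMOD2 at 604 ± 124 and MYOM2 at 497 ± 94 FPKM. KLHL41 and PDLIM3, and XIRP2 and CSRP3, differed by less than their SDs. The lowest were ACTN1 at 9.22 ± 2.97, FHOD3 at 14.8 ± 3.8, NEXN at 41.4 ± 9.4, PALLD at 47.8 ± 8.2, ACTN4 at 54.1 ± 12 and MYOM3 at 58.8 ± 10.4 FPKM. The highest transcript of 23 members was above 100 FPKM.

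Circular RNA was next set against linear RNA. Of the 20 members with both, the circular level per 1000 FPKM of the highest transcript had a median of 0.0273 RPM by the mean over 3 libraries, and of 0.00689, 0.0176 and 0 in the single libraries 1 to 3, where many members had no read. The means ran from 0.000135 for ACTA1 to 0.406 for MYBPC1. Over all 2167 hosts with at least 1 FPKM the median was 1.16 RPM per 1000 FPKM, and every one of the 20 members lay at or below percentile 23.1 of these hosts. A host needs at least 1 read to be counted, so highly expressed genes can reach lower ratios, and the members had a median of 453 FPKM against 12.5 over all hosts. Among hosts of at least 100 FPKM the medians were 0.0226 for 17 members and 0.0574 for 114 other hosts, whose middle range was 0.0298 to 0.187. The circular level itself was alike in both, with medians of 0.0111 and 0.0108 RPM or about 2 reads over the group, and the median linear level was 494 against 179 FPKM, so the lower ratio of the members went with their higher FPKM. MYBPC1 and MYPN lay above that range, at 0.406 and 0.351, and MYOM1 within it, at 0.0880. TPM1, at 0.00911, and ACTN2, at 0.0121, lay below it, as did most of the 17 members. The TPM1 value sums reads of separate gene identifiers over 1 transcript, so it may mix genes. Across the 20 members the rank correlation of circular with linear level was 0.32 (Spearman), and over all hosts 0.14, as a description, since the points share libraries.

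**Figure D5:**
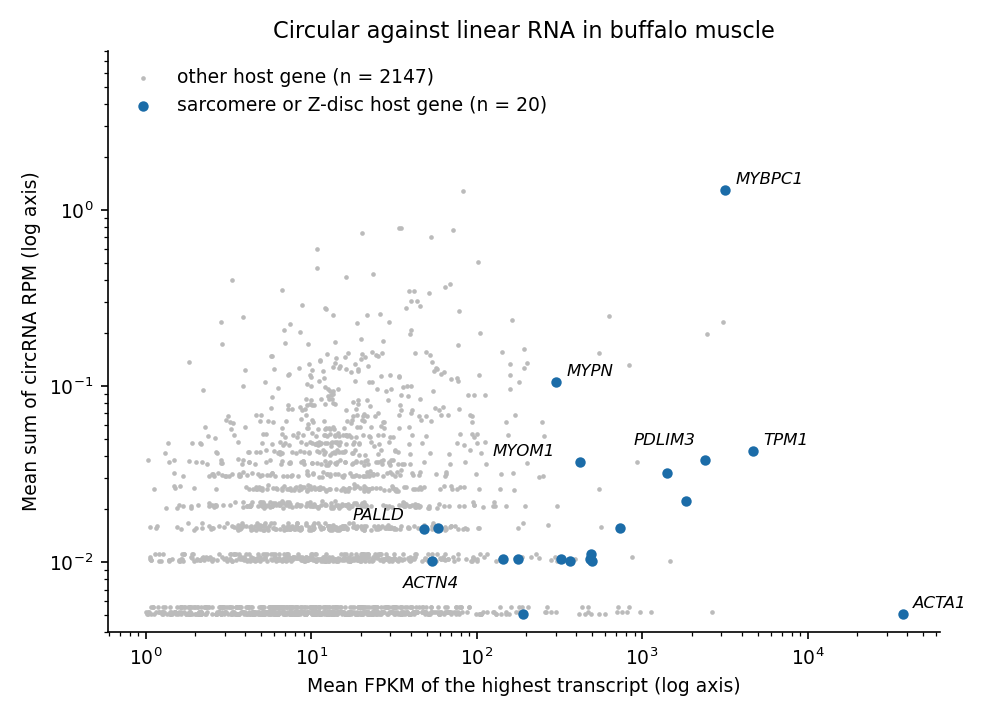
Mean summed circRNA level (RPM) against mean FPKM of the highest transcript in buffalo muscle, both on log axes, with 1 point per host gene that had a circular read and at least 1 FPKM. The rows of points at the bottom are genes with 1, 2 or 3 junction reads over the 3 libraries, and MYBPC1, at 3182 FPKM and 1.29 RPM, stands apart from the members near it in FPKM.

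A further 9 members had a named transcript and no circular read in buffalo muscle. They were KLHL41, XIRP2, CSRP3, LMOD2, SYNPO2, SMYD1, NEXN, FHOD3 and ACTN1, from 2421 FPKM for KLHL41 to 9.22 FPKM for ACTN1. The first 8 had circular reads in cattle muscle and ACTN1 in cattle adipose tissue, which is how their transcripts came to be named. Absence is bounded by the small number of junction reads, since 3 reads over the 3 buffalo libraries would be 0.0158 RPM. Of the 20 members detected, 10 had fewer reads than that.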

How the data were processed

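The 9 libraries were made with the TruSeq RNA LT Sample Prep Kit from total RNA of 3 tissues, 3 samples each, and both cattle tissues came from the same 3 animals. The sources do not state which muscle and adipose tissue library share an animal, so the fit treats the 6 cattle libraries as separate. Per the labels the authors used Trim Galore, STAR, Cufflinks 2.2.1 and Cuffdiff on the cattle genome UMD3.1. How circRNAs were called and which total RPM was scaled to are not given in the sources used here. The circRNA tables deposited by the authors hold RPM per back-splice junction, and the mRNA table deposited by the authors holds FPKM per transcript. The tables also had 9 columns of buffalo adipose tissue, which were not used here, and the lncRNA table was not used.

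In each circRNA column 100% of values were whole multiples of 1 step within 0.01 reads, and reads were recovered from it. Host sums of RPM were tested as log2(RPM + 1) with limma 3.58.1 and Benjamini-Hochberg adjustment over all features with at least 2 reads in at least 3 of 6 cattle libraries, at 0.05. Fold changes on this scale understate the change of low genes. Recovered reads were also tested with edgeR 4.0.16, which called 163 circRNAs and 161 hosts, and DESeq2 1.42.0. Intervals and floors cover counting error only, and p-values measure the spread between these samples.

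Members and lists were chosen with earlier results of these data known. Genes named with all values are the members that passed the filter and the 15 highest in either muscle. For circRNAs they are those called and the 3 highest of each group, and for mRNAs the 12 highest and 6 lowest. LMOD2, ACTA1, ACTN1, ACTN4, KLHL41, XIRP2, SMYD1, PDLIM7, CSRP3, NEXN and SYNPO2 are named to account for every member, and single junctions of PALLD and MYOM1 and the unnamed gene were chosen after their values were seen. Reference names came from RefSeq (ARS-UCD2.0), and 43 of 43 symbols matched.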

Additional observations from a re-analysis of the deposited data

How the results depend on the processing

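MYBPC1 and MYPN kept their call as host sums under every alternative fit in which they were tested. Calls of member hosts rose from 2 to 4 with a pseudocount of 0.1, 5 with edgeR and TMM, 4 with edgeR on library totals and 4 with DESeq2, and ranged from 2 to 4 with 1 library left out, the 4 without cattle muscle 1. Taking hosts by gene identifier, an alternative chosen after seeing the data, left 2. In the same order, calls over all circRNAs moved from 62 to 123, 163, 113 and 115, and to 36 with no filter, which tests 18535 circRNAs. They ranged from 24 to 70 with 1 library left out, with 36 without cattle muscle 3, 26, 41 and 24 without cattle adipose tissue 1, 2 and 3. Calls over all hosts moved from 70 to 126, 161, 119 and 117, and to 35 with no filter, and ranged from 17 to 64, with 39 and 26 without cattle muscle 2 and 3, and 22, 45 and 17 without cattle adipose tissue 1, 2 and 3. Fewer samples enter each of these fits, and the cause of the other shifts was not tested. Member circRNAs called ranged from 6 to 9 with 1 library left out and numbered 10 with a pseudocount of 0.1, both edgeR fits and DESeq2. Detection in each of 3 libraries held for 5, 11 and 1 members in muscle of buffalo, muscle of cattle and adipose tissue. The 1 member of adipose tissue was TPM1, and only through the sum of its separate gene identifiers. Detection in adipose tissue ranged from 4 to 9 members with 1 library left out. The ratio of cattle to buffalo muscle was 1.24 as a share of junction reads, and 1.58 without MYBPC1. Both ratios leave out the unnamed gene, which would reverse the order of the species if counted. With at least 2 reads in each species, 19 member junctions were shared. The median circular level per 1000 FPKM, by the mean over libraries, ranged from 0.0264 to 0.0388, the latter without buffalo muscle 3.

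With the replicate number as a block, 86 circRNAs, 69 hosts, 7 member circRNAs and 2 member hosts were called. Deviations of same-numbered muscle and adipose tissue correlated at 0.238, 0.169 and -0.0156 over 1917 circRNAs and at 0.214, 0.177 and -0.0219 over hosts, and cattle muscle 3 did not correlate best with its own number, so the numbers were not taken to pair samples.

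The small number of junction reads limits most members, although the derived library totals were larger in buffalo muscle than in the cattle libraries. All but 2 of the 20 in buffalo muscle rest on fewer than 10 reads, and 0.0158 RPM there is 3 reads over the group, a level that 10 of the 20 did not reach.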
